A study of Mus musculus with 18 samples.

Results

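All 6 pools of clenbuterol-treated mouse gracilis muscle, 3 taken after a single day of treatment and 3 after 10 days, were compared together with 3 vehicle control pools, to find the mRNA abundances that differed from control at both durations. These 6 treated pools and 3 control pools are all 9 pools of the series. Each pool held muscle RNA from 3 male C57BL/6J mice, so that 27 mice were measured, and was hybridised to 2 Affymetrix chips, MOE430A and MOE430B, for 18 arrays in all. Mice of the C group received intraperitoneal vehicle for 10 days, mice of the 24 h group received vehicle for 9 days and clenbuterol at 1 mg/kg for 1 day, and mice of the 10 D group received clenbuterol at 1 mg/kg for 10 days. The muscle was removed 24 h after the final injection, so every treated pool was measured at the same delay after a dose. The mice were 3 to 5 weeks old at the start, whole cages were assigned to a treatment, and the study picked the mice for the arrays by how far their blood urea nitrogen and weight gain stood from control. The groups therefore describe selected, growing animals, and the spread between single mice was not measured.

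Clenbuterol is a beta2-adrenergic agonist. The receptor couples to a stimulatory G protein, raises cyclic AMP in the muscle fibre and activates protein kinase A, which acts on transcription through factors that bind the cyclic AMP response element. In skeletal muscle, beta-agonists are known for growth of the fibres and loss of fat, and the response to the same dose wanes as receptors are withdrawn from the membrane. Repeated dosing thus poses the question of which mRNA responses persist.

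The gracilis was chosen by the study as a muscle that mixes slow and fast fibres, and muscle fibre genes were bright in every pool. The summed level of 13 muscle fibre markers lay between 2479 and 3992 times the array median in the C pools, 2176 and 2969 in those of 24 h and 1916 and 3204 in those of 10 D. The median signal of an array ran from 30.8 to 88.4 on MOE430A and from 13.2 to 37.1 on MOE430B, and each signal was divided by it, so a level here is a multiple of the array median. In total 33752 probesets, 16969 on MOE430A and 16783 on MOE430B, were bright enough to be tested. In bulk muscle, fewer cells of a type and less RNA per cell cannot be told apart.

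The combined change of a probeset was the mean of its log2 changes at 24 h and at 10 D, each duration with equal weight, tested with limma. A probeset was called at an adjusted p below 0.1 (an FDR of 10%), and it was separated when all 6 treated pools lay on the same side of all 3 C pools. Of the 33752 probesets, 33 were called (0.0978%). Separation alone was met by 773 probesets with higher mRNA abundance under clenbuterol (2.29%) and by 473 with lower abundance (1.4%). By the exact permutation test, a probeset without any treatment effect would be separated with a probability of 0.0238, shared equally between the directions. The lower share stands only slightly above its part of that level, and the higher share more clearly so. Separation without a call is therefore weak evidence for a given probeset, most of all on the lower side. Both criteria were met by 31 probesets, 29 higher (0.0859%) and 2 lower (0.00593%), whereas quantile normalization gave 27 higher and 8 lower. At unadjusted p below 0.05, 2379 probesets differed, 1535 of them upward, and the median combined change of all probesets was 0.01 on the log2 scale.

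The 31 probesets stand for 27 named genes, since Rnf128 has 2 probesets among them and 3 probesets carry no single gene symbol. Their combined log2 changes ran from 0.97 to 3.97 upward, with a median of 1.93. At least a 2-fold change at each duration was reached by 24 of the 31, and 28 had an unadjusted p below 0.05 at each duration. Against C, 30 of the 31 were also called at 24 h alone, where 154 probesets were called (0.456%). At 10 D alone 0 probesets were called by limma (0%), although 1540 had an unadjusted p below 0.05, so the 10 D part of these calls is carried by the separation of the pools and not by a test of that duration.

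**Figure D1:**
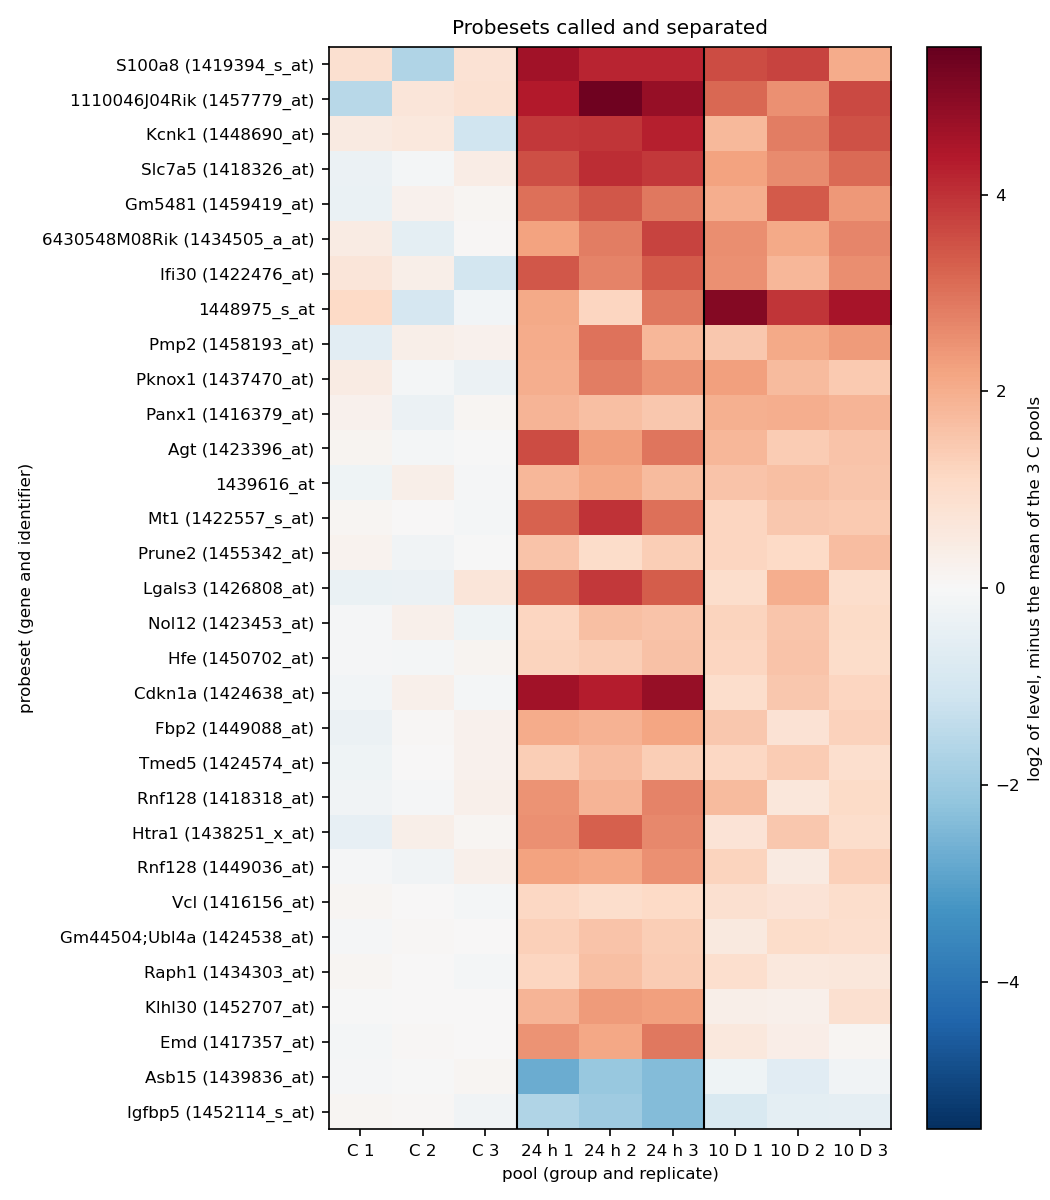
Each row is a probeset that was called and separated, each column a pool, and the colour is the log2 level minus the mean of the 3 C pools, in log2 units. The 29 upper rows are red in all 6 treated pools and the 2 lower rows, Asb15 and Igfbp5, are blue in all 6, with paler colours at 10 D than at 24 h for most rows.

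The number of calls depended on single pools. With 1 pool left out, 31 turned into 11 (C pool 1), 7 (C pool 2), 9 (C pool 3), 7 (24 h pool 1), 20 (24 h pool 2), 4 (24 h pool 3), 27 (10 D pool 1), 45 (10 D pool 2) or 4 (10 D pool 3). Slc7a5, Mt1, Cdkn1a and the probeset with no listed gene were called in all 9 of these fits, with adjusted p of at most 0.0596. For 10 probesets, those of Kcnk1, Gm5481, Panx1, Prune2, Fbp2, Rnf128 (both), Htra1, Emd and Asb15, the call was lost when a C pool, 24 h pool 1 or 3 or 10 D pool 3 was left out, and their highest adjusted p was between 0.195 and 0.540. A further 7, of 6430548M08Rik, Nol12, Hfe, Tmed5, Vcl, Raph1 and Igfbp5, were called in only 1 such fit, that without 10 D pool 2, with a highest adjusted p between 0.3004 and 0.534. S100a8 and Pmp2 were called only with all 9 pools present, and their adjusted p rose to as much as 0.244 and 0.526. The calls of Klhl30 and of the probeset shared by Gm44504 and Ubl4a held only in the fits that left out 10 D pool 1 or 2 (adjusted p up to 0.540 in the others).

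Among the others, 1110046J04Rik lost its call without 24 h pool 3 or 10 D pool 3 (adjusted p up to 0.116), and Pknox1 without C pool 2 or 3, 24 h pool 3 or 10 D pool 3 (up to 0.200). Ifi30 lost it without C pool 2 or 3, 24 h pool 1 or 3 or 10 D pool 3 (adjusted p up to 0.195). Agt lost it when a C pool, 24 h pool 3 or 10 D pool 3 was left out (up to 0.195), and Lgals3 without C pool 1 or 2, 24 h pool 1 or 3 or 10 D pool 3 (up to 0.301). For the probeset that the study names Ren1 the call was lost without C pool 2 or 3, 24 h pool 1 or 3 or 10 D pool 1 or 3 (up to 0.3004).

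Slc7a5, the large neutral amino acid transporter that brings leucine into the cell, showed the widest gap between treated and control pools of the 31. Its level was 0.153, 0.179 and 0.25 in the C pools, 2.22, 3.20 and 2.85 at 24 h and 0.879, 1.14 and 1.67 at 10 D. The lowest treated pool was thus 3.52-fold above the highest C pool. The combined log2 change was 3.25 (SE 0.28, adjusted p = 0.0060 by limma), made of 3.84 at 24 h and 2.65 at 10 D. All 3 C pools were dim, at the 17.9th percentile of the chip by their mean, so the fold is less certain than the direction. Slc38a2, a sodium-coupled transporter of small neutral amino acids, was separated and fell just outside the threshold, with 10.0, 12 and 11.6 in the C pools, 25.3, 32.7 and 25.2 in those of 24 h and 17.7, 19.2 and 16.7 in those of 10 D (combined 0.99, adjusted p = 0.137). These were the 2 members separated upward among 23 amino acid transporters tested (8.70%, against 2.7% of all genes). Slc7a5 is among the genes that the study selected on these pools, so this count is not independent evidence.

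Mt1, a metallothionein that binds zinc and copper and is induced by stress, had levels of 7.60, 7.21 and 6.63 in the C pools, 67.8, 114 and 58.1 in those of 24 h and 16.0, 19.8 and 19.6 in those of 10 D. The groups did not overlap, and the 10 D pools lay between C and 24 h. The combined log2 change was 2.39 (SE 0.22, adjusted p = 0.0060). A second, dim Mt1 probeset had a combined change of 0.01 (SE 0.49) and a mean level of 0.452 in C. Mt2, its close relative, had means of 5.36 in the C pools, 24.9 in those of 24 h and 9.13 in those of 10 D and was not separated (combined 1.49, adjusted p = 0.184).

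Cdkn1a, the cell cycle inhibitor p21, had the smallest adjusted p of all probesets. Levels were 1.51, 2.04 and 1.54 in the C pools, 40.8, 33.8 and 47.0 in those of 24 h and 3.29, 4.76 and 3.82 in those of 10 D (combined log2 change 2.90, SE 0.20, adjusted p = 0.0014). The change was 4.58 at 24 h and 1.22 at 10 D, so every 10 D pool was above C but about an order of magnitude below 24 h. The second Cdkn1a probeset had a combined change of 2.85 (SE 0.59) and was not separated. Among 22 cell cycle inhibitors and Gadd45 genes tested, Cdkn1a, itself selected by the study on these pools, was the only member separated upward (4.55%, against 2.7% of all genes). In this list 0 were separated downward.

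**Figure D2:**
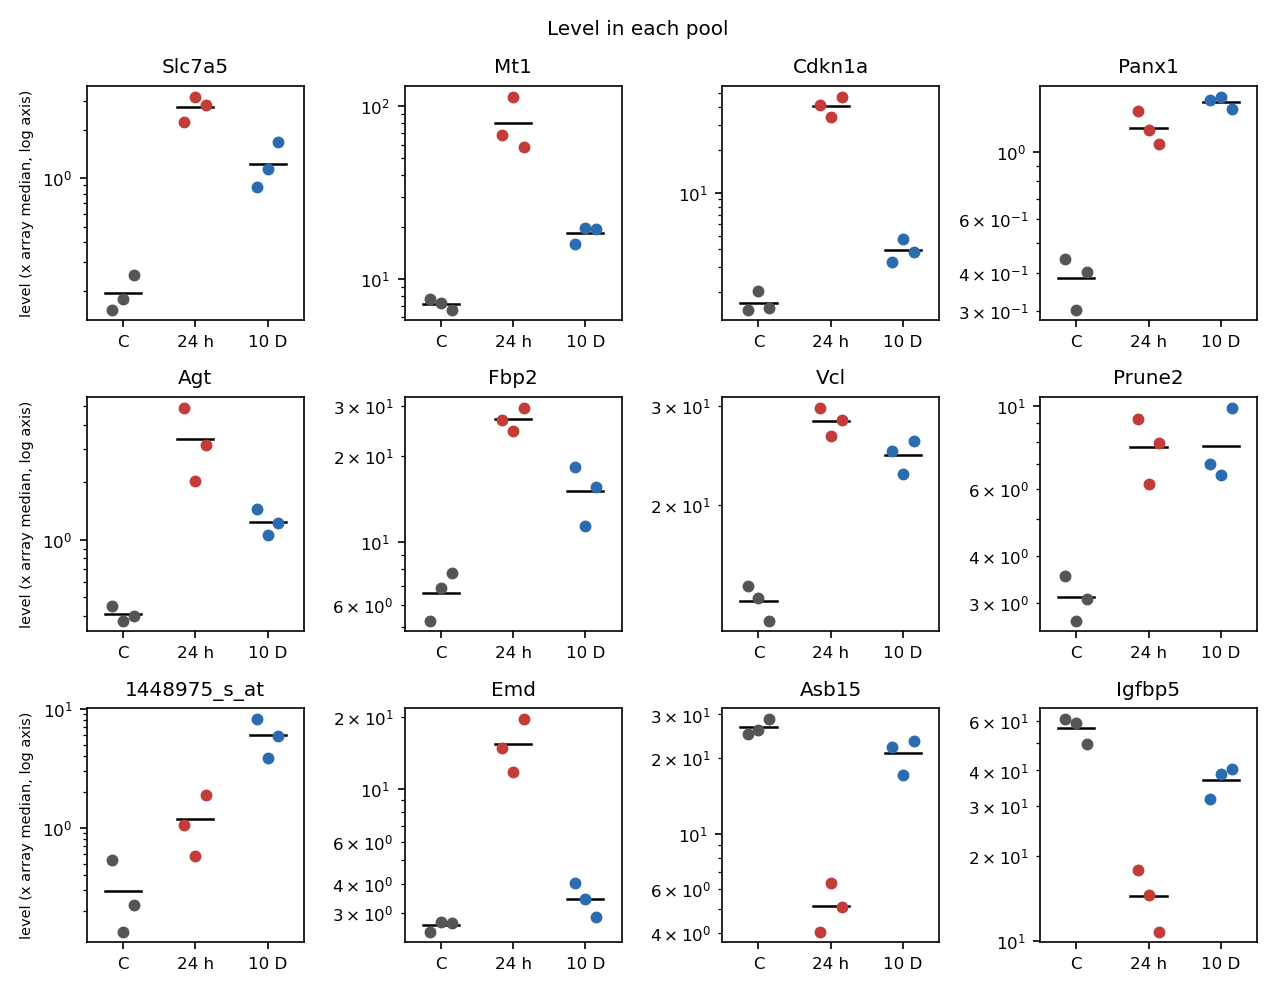
Points are the pools of C (grey), 24 h (red) and 10 D (blue) for 12 of the called and separated probesets, lines are group means, and the vertical axis is the level as a multiple of the array median on a log scale that differs between panels. Panx1 and Prune2 stand about as far from C at both durations, Mt1, Cdkn1a and Emd fall back most of the way by 10 D, the panel named by its identifier, the Ren1 probeset of the study, stands highest at 10 D, and Asb15 and Igfbp5 are lower in all treated pools.

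Some of the responses were about as large after 10 days as after 1. For 13 of the 31, all higher, the 95% interval of the difference between 10 D and 24 h held 0, and their changes ran from 1.07 to 4.34 at 24 h and from 0.87 to 3.12 at 10 D. An interval that holds 0 does not show that the durations were alike, and the widest reached from -2.74 to 0.29, for S100a8. The C pools are shared by both durations, so agreement between the 2 changes of a probeset rests in part on the same 3 pools.

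Panx1, a pannexin that forms channels releasing ATP, had 0.445, 0.302 and 0.402 in the C pools, 1.37, 1.18 and 1.06 in those of 24 h and 1.49, 1.52 and 1.38 in those of 10 D. All 3 pools at 10 D lay above all 3 at 24 h, yet the difference was 0.29 with an interval from -0.29 to 0.87. The combined log2 change was 1.81 (SE 0.23, adjusted p = 0.0399). Prune2 had similar levels at both durations, with 3.55, 2.70 and 3.08 in the C pools, 9.19, 6.20 and 7.96 in those of 24 h and 7.01, 6.57 and 9.88 in those of 10 D (combined 1.32, SE 0.20, adjusted p = 0.0601), a difference between durations of 0.00 with an interval from -0.51 to 0.51. Its 3 other probesets were not separated and had combined changes of 0.09, 0.91 and 0.23.

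Vcl encodes vinculin, which anchors actin filaments at adhesion sites and costameres. It was among the brightest of the 31 and had the smallest combined change, 0.97 (SE 0.15, adjusted p = 0.0907). Levels were 14.3, 13.6 and 12.4 in the C pools, 29.8, 26.5 and 28.4 in those of 24 h and 24.96, 22.7 and 26.0 in those of 10 D, close within each group. A second, dim Vcl probeset was not separated and had a combined change of 0.20 (SE 0.82). A probeset with no listed gene had 3.31, 4.88 and 3.78 in the C pools, 14.04, 16.9 and 13.3 in those of 24 h and 11.6, 12.4 and 11.5 in those of 10 D (combined 1.74, SE 0.18, adjusted p = 0.0060).

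Ifi30, a lysosomal thiol reductase of antigen-presenting cells, had 2.57, 1.98 and 0.801 in the C pools, 17.0, 10.6 and 16.6 in those of 24 h and 9.01, 5.61 and 9.27 in those of 10 D (combined 2.73, SE 0.36, adjusted p = 0.0399). Hfe, an MHC-like protein of iron homeostasis, had means of 1.495 in the C pools, 3.96 in those of 24 h and 3.58 in those of 10 D (combined 1.32, adjusted p = 0.0664), and a second Hfe probeset had a combined change of 0.57 without separation. Of 13 macrophage markers tested 0 were separated. With 2.7% of all genes separated upward and 1.41% downward, a 0 in a list of this size says little. The summed level of the markers was 30.2 to 35.7 in C, 30.5 to 43.9 at 24 h and 30.9 to 36.1 at 10 D. The part of macrophages in these 2 changes was not tested.

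S100a8, a calcium-binding protein abundant in neutrophils, had 0.205, 0.0354 and 0.196 in the C pools, 2.78, 2.07 and 2.05 in those of 24 h and 1.36, 1.47 and 0.468 in those of 10 D (combined 3.73, SE 0.59, adjusted p = 0.0907). These C levels are dim, at the 11.2th percentile of the chip by their mean. S100a9, its usual partner, had means of 0.443, 0.577 and 0.617 in C, 24 h and 10 D with overlapping pools (combined 0.74, SE 1.07). Of 8 neutrophil and lymphocyte markers tested S100a8 was separated upward and Ms4a1, a B cell gene, downward (12.5% each, against 2.7% and 1.41% of all genes). The summed level of these 8 was 8.94 to 10.2 in C, 8.07 to 9.31 at 24 h and 7.48 to 10.4 at 10 D, and the part of these cells in the change of S100a8 was not tested. Pmp2, a fatty acid-binding protein of Schwann cell myelin, had means of 0.457, 2.32 and 1.78 (combined 2.14, SE 0.37, adjusted p = 0.0954). Of 7 Schwann cell and nerve markers tested 0 were separated, which says little in a list of this size. Their sums overlapped, at 29.3 to 38.9, 27.5 to 39.9 and 34.7 to 46.7.

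The other members of this set were smaller or less well defined. Pknox1, a homeodomain transcription factor, had means of 0.686, 3.71 and 2.42 (combined 2.13, adjusted p = 0.0399), whereas 2 dimmer probesets of the gene had changes of -0.08 and -0.33. Nol12, a nucleolar protein, had means of 1.46, 4.005 and 3.49 (combined 1.36, adjusted p = 0.0738), and its other probeset had -0.19. Tmed5, a cargo protein of transport between endoplasmic reticulum and Golgi, had means of 3.60, 9.90 and 8.02 (combined 1.31, adjusted p = 0.0658), and another of its probesets was separated as well with the same combined change of 1.31 (adjusted p = 0.139). A further 2 Tmed5 probesets were not separated and had 0.26 and 0.64. Gm5481, a predicted gene, had means of 0.224, 1.92 and 1.44, and one probeset of 6430548M08Rik had 0.252, 2.02 and 1.34. Both started from C levels below the 25th percentile of the chip, as 6 of the 31 did in all, and such probesets passed the filter on dim signals through their treated pools. The 3 other 6430548M08Rik probesets were brighter in C and not separated, with combined changes of 1.04, 1.73 and 0.73, and for 2 of them the interval of the difference between durations left out 0 (-1.69 to -0.46 and -2.87 to -0.36).

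**Figure D3:**
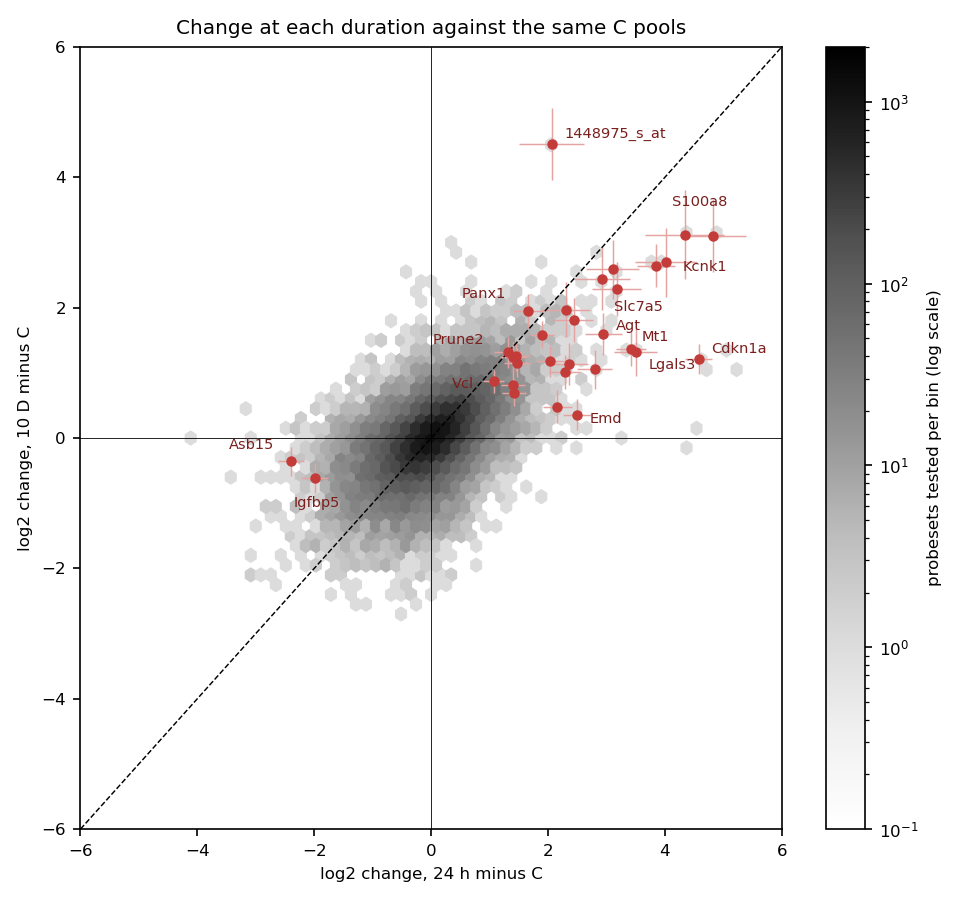
Each red point is a called and separated probeset with its log2 change at 24 h (horizontal) and at 10 D (vertical) against the same C pools, with standard errors, and the grey bins count all 33752 probesets tested. Most red points lie below the dashed line of equal change, with Cdkn1a at 4.58 and 1.22, and the study's Ren1 probeset lies far above it at 2.06 and 4.51.

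For 17 of the 31 the interval of the difference left out 0 with the larger change at 24 h, 15 of them higher and 2 lower than C. By the adjusted test of 10 D against 24 h, in which 17 of all probesets passed (0.0504%), 5 of the 31 differed, namely Cdkn1a, Mt1, Emd, Klhl30 and Asb15. That their 10 D pools lay on the same side of C follows from how the 31 were chosen.

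Agt, angiotensinogen, the precursor of the angiotensin peptides, had levels of 0.451, 0.377 and 0.397 in the C pools, 4.91, 2.03 and 3.13 in those of 24 h and 1.45, 1.07 and 1.23 in those of 10 D. The lowest treated pool was 2.36-fold above the highest C pool, and the combined log2 change was 2.28 (SE 0.28, adjusted p = 0.0399). Another probeset, for which the platform annotation lists no gene, ran the other way in time. The study's own annotation names it Ren1, the gene of renin, which cleaves angiotensinogen. It had 0.532, 0.134 and 0.224 in the C pools, 1.06, 0.580 and 1.90 in those of 24 h and 8.26, 3.89 and 5.85 in those of 10 D (combined 3.29, SE 0.48, adjusted p = 0.0634). This was the only 1 of the 31 whose interval put the larger change at 10 D, with a difference of 2.44 (interval 1.21 to 3.68) that did not pass the adjusted test (adjusted p = 0.355). Its lowest treated pool, at 24 h, exceeded the highest C pool by only 1.09-fold. The C pools of this probeset were dim, at the 22.2th percentile of the chip by their mean, so the fold is less certain than the direction. It passed the filter on dim signals through its treated pools.

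Of 24 renin-angiotensin and vasoactive genes tested, 3 were separated upward (12.5%, against 2.7% of all genes) and 2 downward (8.33%, against 1.41%). Beside Agt the upward members were Enpep, the aminopeptidase that converts angiotensin II, with means of 1.69, 3.53 and 5.19 (combined 1.35, adjusted p = 0.267), and Edn1, the precursor of endothelin 1, with 0.849, 2.39 and 1.19 (combined 0.98, adjusted p = 0.242). The downward members were the kinase Prkg1 (-0.91, adjusted p = 0.197) and the angiogenic factor Vegfa (-0.35, adjusted p = 0.722). Agt alone of these passed the test.

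Fbp2, the muscle fructose bisphosphatase that returns carbon toward glycogen, had 5.28, 6.86 and 7.75 in the C pools, 26.7, 24.5 and 29.6 in those of 24 h and 18.3, 11.3 and 15.6 in those of 10 D (combined 1.61, SE 0.21, adjusted p = 0.0399). The level at 10 D was above C in every pool and below 24 h in every pool. Of 34 genes of glycolysis, gluconeogenesis and glycogen tested, Fbp2 was the only 1 separated upward and Gys1, muscle glycogen synthase, the only 1 downward, with means of 21.0, 11.1 and 13.5 (combined -0.82, adjusted p = 0.525). Each makes up 2.94% of the list, against 2.7% of all genes upward and 1.41% downward.

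Lgals3, a galectin found in macrophages and in damaged muscle, had 1.12, 1.17 and 2.32 in the C pools, 13.99, 21.4 and 14.7 in those of 24 h and 2.83, 5.79 and 2.86 in those of 10 D (combined 2.41, SE 0.32, adjusted p = 0.0399). In all, 2 pools at 10 D were only slightly above the highest C pool, a gap of 1.22-fold. Rnf128, an E3 ubiquitin ligase, had means of 3.43, 18.0 and 7.88 by its brighter probeset (combined 1.75, adjusted p = 0.0948) and of 2.31, 11.2 and 4.75 by the other (combined 1.65, adjusted p = 0.0496). Htra1, a secreted serine protease, had means of 3.07, 21.5 and 6.38 (combined 1.93, adjusted p = 0.0405), and its other probeset, with means of 4.71, 13.0 and 5.69, was not separated. Kcnk1, a potassium channel subunit, had 0.240, 0.249 and 0.0794 in the C pools, 2.47, 2.55 and 3.23 in those of 24 h and 0.574, 1.17 and 1.93 in those of 10 D (combined 3.36, SE 0.46, adjusted p = 0.0435). Its second probeset was separated by a gap of only 1.03-fold (combined 2.25, adjusted p = 0.418). Both were dim in C, at the 16.3th and 12.8th percentile of the chip, and passed the filter on dim signals through their treated pools. 1110046J04Rik, without a known role here, had the largest combined change, 3.97 (SE 0.49, adjusted p = 0.0264), with means of 0.431, 10.2 and 3.12. Its C pools were dim, with 0.12, 0.548 and 0.626, at the 25.2th percentile of the chip by their mean. The size of the change is therefore less certain than its direction, and it ran from 3.21 to 4.40 with 1 pool left out.

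The next 3 members of this set act at the cytoskeleton or the nuclear envelope or belong to the kelch-like family. Raph1, lamellipodin, which promotes actin assembly at the cell edge, had means of 6.51, 17.6 and 10.6 (combined 1.06, adjusted p = 0.0790), and its 2 other probesets had 0.45 and 0.51 without separation. Emd, emerin of the inner nuclear membrane, had 2.51, 2.77 and 2.73 in the C pools, 14.7, 11.8 and 19.7 in those of 24 h and 4.01, 3.45 and 2.89 in those of 10 D (combined 1.43, SE 0.21, adjusted p = 0.0601). Its 10 D change of 0.36 had an unadjusted p of 0.161, and the lowest 10 D pool exceeded the highest C pool by 1.05-fold. Klhl30, a kelch-like protein, had 15.3, 15.6 and 15.5 in the C pools, 57.0, 77.9 and 74.0 in those of 24 h and 19.1, 18.5 and 28.4 in those of 10 D (combined 1.32, SE 0.22, adjusted p = 0.0776), with an unadjusted p of 0.0787 for the 10 D change of 0.48. For the probeset shared by Gm44504 and Ubl4a the combined change was 1.11 (adjusted p = 0.0948).

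Both probesets with lower mRNA abundance belong to bright genes. Asb15, an ankyrin repeat and SOCS box protein of striated muscle, had 25.2, 26.0 and 28.9 in the C pools, 4.05, 6.32 and 5.07 in those of 24 h and 22.3, 17.1 and 23.6 in those of 10 D (combined -1.38, SE 0.20, adjusted p = 0.0399). The highest 10 D pool was below the lowest C pool by only 1.07-fold, and the 10 D change of -0.36 had an unadjusted p of 0.142. Igfbp5, a secreted protein that binds insulin-like growth factors, had 60.9, 58.7 and 49.4 in the C pools, 17.9, 14.6 and 10.8 in those of 24 h and 31.9, 38.9 and 40.4 in those of 10 D (combined -1.30, SE 0.20, adjusted p = 0.0776). A second Igfbp5 probeset, with a mean of 1.30 in C at the 53.5th percentile of the chip, was not separated. Its combined change was 0.22 (SE 0.49).

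Tubb6 and Tnfrsf12a were called but not separated. Tubb6, a beta-tubulin, had 0.419, 0.189 and 0.245 in the C pools, 14.1, 5.71 and 9.66 in those of 24 h and 1.09, 0.357 and 0.884 in those of 10 D, with a combined change of 3.24 (SE 0.42, adjusted p = 0.0399). Tnfrsf12a, the TWEAK receptor, had 0.718, 0.651 and 0.668 in the C pools, 29.1, 19.7 and 25.9 in those of 24 h and 2.09, 0.527 and 2.18 in those of 10 D, with 3.08 (SE 0.41, adjusted p = 0.0399). In both genes 10 D pool 2 lay within or below the range of C. That pool was also the treated pool nearest to C for 10 of the 31, against 9 each for 10 D pools 1 and 3, 2 for 24 h pool 2 and 1 for 24 h pool 3.

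Just outside the threshold stood further separated probesets. The closest upward was Zfp52, a zinc finger gene, with means of 0.453, 1.80 and 0.947 (combined 1.53, adjusted p = 0.111), where Pmp2 at 0.0954 was the last inside. Odc1, ornithine decarboxylase, which makes putrescine and limits polyamine synthesis, had 3.41, 3.13 and 4.28 in the C pools, 7.11, 7.41 and 8.95 in those of 24 h and 7.27, 6.38 and 7.26 in those of 10 D (combined 1.04, SE 0.18, adjusted p = 0.137). A second Odc1 probeset was separated upward with 0.60, and the remaining one was not, with 0.35. The closest downward was Cuedc1, with 4.03, 3.45 and 2.44 in the C pools, 1.13, 0.835 and 1.00 in those of 24 h and 1.59, 1.03 and 1.67 in those of 10 D (combined -1.47, SE 0.24, adjusted p = 0.117).

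Among the separated probesets that were not called and had the smallest p on the downward side were a few with well-known roles. Their separation is weak evidence, since the share of lower probesets was only slightly above the level without a treatment effect. Acvr2b, a receptor for myostatin and activin, had 5.09, 6.20 and 4.25 in the C pools, 1.87, 1.55 and 1.26 in those of 24 h and 3.06, 3.17 and 4.03 in those of 10 D (combined -1.16, adjusted p = 0.140). Sspn, sarcospan of the dystrophin complex, had means of 3.60, 1.32 and 1.88 (combined -1.21, adjusted p = 0.157). Retnla, a resistin-like secreted protein, had means of 9.77, 3.56 and 2.61 (combined -1.66, adjusted p = 0.204). Mxd1, which opposes Myc at E-boxes, had 1.64, 1.92 and 1.57 in the C pools, 0.240, 0.348 and 0.185 in those of 24 h and 0.978, 0.342 and 0.214 in those of 10 D, where pool 1 was well above the other two (combined -2.41, adjusted p = 0.242). Over all separated probesets, the median change was 0.74 at 24 h and 0.62 at 10 D for the 773 higher, and -0.82 and -0.68 for the 473 lower, and 126 and 88 of them changed by at least 2-fold in the mean at each duration.

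Of 6744 genes with 2 or more probesets tested, 454 had at least 1 separated upward and 245 downward. In 9 of the 454 and 1 of the 245 all probesets of the gene were separated that way. The 9 were Kcnk1 (dim in C by both probesets), Rnf128, Egln3, Xpo1, Edem3, Ccdc50, Vkorc1l1, Rps6ka3 and Lgals1, and the 1 was Cdh4, a cadherin. Egln3, a prolyl hydroxylase of the hypoxia-inducible factors, had means of 2.00, 8.70 and 5.66 by one probeset and of 3.11, 8.97 and 6.49 by the other, with combined changes of 1.75 (adjusted p = 0.176) and 1.24 (adjusted p = 0.315). Ccdc50 was separated upward in 4 of 4 probesets with smaller changes, from 0.38 to 0.88.

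The 42 lists of related genes were read through the brightest probeset of each of 15184 genes, of which 410 were separated upward (2.7%), 214 downward (1.41%), and 25 called and separated (0.165%). The downward share is again only slightly above the level without a treatment effect, so a separated gene that was not called is weak evidence. The median combined change over the 15184 genes was 0.03. Of 1102 entries 973 were tested. Some lists hold genes of the study's tables, which came from these pools, so such counts are not independent evidence of direction.

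Genes of protein synthesis had separated members in the upward direction alone. Of 21 aminoacyl-tRNA synthetases, which charge tRNA with amino acids, 4 were separated upward (19.0%) and 0 downward, with a list median of 0.21. These were Eprs (14.3, 32.7 and 19.3 in C, 24 h and 10 D), Mars1 (10.7, 23.0 and 14.97), Wars (3.84, 5.76 and 6.07) and Yars (2.12, 9.96 and 3.92), with adjusted p from 0.338 to 0.520. The Yars mean at 24 h was carried by pool 3, since the 24 h pools had 5.504, 4.38 and 19.98. Of 42 ribosome biogenesis genes 4 were separated upward (9.52%), namely Nop56, Rrp12, Gnl3 and Polr1e, and Nop56, a core protein of box C/D ribonucleoproteins, had 1.84, 1.74 and 1.63 in the C pools, 3.22, 5.14 and 3.41 in those of 24 h and 4.30, 3.00 and 3.47 in those of 10 D (combined 1.09, adjusted p = 0.213). Of 32 translation initiation factors 2 were separated upward (6.25%), Eif3c and Eif3k, and of 29 cytosolic ribosomal proteins 0 in either direction. None of these passed the adjusted test.

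Growth-factor signalling showed separated members mainly on the lower side. In the growth hormone and IGF axis 4 of 19 genes were separated downward (21.1%, against 1.41% of all genes) and 0 upward, with a list median of -0.38. Igfbp5 passed the test, and the others were the growth hormone receptor Ghr (36.3, 18.4 and 31.9, combined -0.59), Igf2 (4.52, 3.55 and 3.41, -0.38) and the receptor Igf2r (9.82, 6.41 and 6.54, -0.61). Ghr, Igfbp5 and Igf2r are among the genes that the study reported as changed on these pools, so the count is not independent evidence. Of 30 genes of the insulin receptor, Akt and mTOR 4 were separated downward (13.3%), Irs2, Akt2, Tsc1 and Grb14, and 1 upward, Phlda3, a repressor of Akt, and their adjusted p ran from 0.349 to 0.761. Among 23 myostatin and activin genes Acvr1b and Acvr2b were separated downward (8.70%, against 1.41% of all genes) and Acvr2a upward (4.35%, against 2.7%).

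In protein breakdown, 3 of 37 proteasome subunits were separated upward, Psmb1, Psmd4 and Psmd11 (8.11%), with combined changes of 0.25 to 0.41 and 0 downward. Of 26 atrophy ubiquitin ligases Mul1 was separated upward (0.94) and Traf6 and Ube2d1 downward (-1.37 and -1.15). The shares were 3.85% upward and 7.69% downward, against 2.7% and 1.41% of all genes. Fbxo32, the ligase atrogin-1, had means of 14.9, 8.03 and 9.89 and overlapping pools (combined -0.80, adjusted p = 0.678). Of 25 Asb and kelch-like genes 3 were separated upward, Asb5, Asb7 and Klhl30, and 3 downward, Asb15, Klhl33 and Kbtbd13 (12% each, against the same shares of all genes). The probesets of Klhl30 and Asb15 are among those that the study selected on these pools, so these counts are not independent evidence.

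Of 37 genes of the actin and microtubule cytoskeleton 4 were separated upward (10.8%) and 0 downward, and Vcl, Raph1 and Emd passed the test. The other was Tubb5, a beta-tubulin, with means of 5.44, 13.0 and 6.79 (combined 0.78, adjusted p = 0.242). All 4 genes are among those that the study selected as differentially expressed on these pools, so the count is not independent evidence. Raph1 was read by its probeset brightest over all pools, and one brighter in C (8.33 against 6.51) was not separated. Of 29 genes of stretch response, injury and myogenic factors 3 were separated upward, Lgals3, the cytokine receptor subunit Il6st (0.58) and Myh8, the perinatal myosin heavy chain, with means of 0.444, 0.654 and 1.34 (combined 1.08, adjusted p = 0.369), and Nrap was separated downward (-0.47). The shares were 10.3% upward and 3.45% downward, against 2.7% and 1.41% of all genes. Of 37 metallothionein, oxidative stress and heat shock genes Mt1, Hspb8 and Hspa1b (a chaperone with a near-identical paralogue, so uncertain) were separated upward, and Gpx3, the extracellular glutathione peroxidase, downward (20.3, 12.6 and 13.0, combined -0.69). In this list the shares were 8.11% upward and 2.70% downward. Il6st and Mt1 are among the genes that the study selected on these pools.

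The receptor's own pathway showed little shared change. Of 38 genes of beta-adrenergic and cyclic AMP signalling 1 was separated upward (2.63%, near the 2.7% of all genes), Crem, a cyclic AMP-responsive repressor and activator, with 1.53, 1.03 and 0.827 in the C pools, 2.96, 2.65 and 4.54 in those of 24 h and 2.17, 1.54 and 1.95 in those of 10 D (combined 1.18, adjusted p = 0.293). Of 24 early genes induced by cyclic AMP only Ier3 was separated (0.42, adjusted p = 0.689). Per2, a clock gene, was the only 1 of 19 circadian genes separated, downward, with means of 7.13, 2.82 and 3.35 (combined -1.14, adjusted p = 0.316).

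The counts of separated metabolic and contractile genes were small, but with 2.7% and 1.41% of all genes separated they do not set lists of this size apart. In the mitochondrial respiratory chain 1 of 43 was separated, Cox6a2, the muscle form of a cytochrome oxidase subunit, downward, with 145, 119 and 117 in the C pools, 81.1, 52.7 and 99.5 in those of 24 h and 62.1, 74.1 and 75.9 in those of 10 D (combined -0.80, adjusted p = 0.420). Of 37 genes of fatty acid uptake and oxidation only Lpl, lipoprotein lipase, was separated, downward (86.5, 62.5 and 65.3, combined -0.44, adjusted p = 0.629), and Lpl is also an adipocyte marker. Of the 15 adipocyte markers tested, Lpl was the only 1 separated, and their summed level was 308 to 390 in C, 215 to 316 at 24 h and 261 to 297 at 10 D, so that all 3 pools at 10 D were below C. The part of adipocytes in the change of Lpl was not tested. In the lists of fast fibre genes (20 tested), slow fibre genes (15), PGC-1 and mitochondrial regulators (24), ATF4 stress targets (20) and polyamine metabolism (12), 0 members were separated in either direction by their brightest probeset, which for Odc1 was not a separated one. The 19 polyamine genes listed include Amd1, Amd2, Sms, Paox, Arg1, Arg2 and Mat2a, which were not tested as members. For Amd1 the study reported lower mRNA abundance at both durations. The autophagy and lysosome genes (35 tested) had Atp6v0e and Capn2 separated upward and Lamp1 downward, the MAP kinase pathway (27) Mapk9 upward and Dusp8 and Spry1 downward, cholesterol synthesis (22) Hmgcs1 upward and calcium handling (31) Rcan2 downward, with adjusted p from 0.287 to 0.792. The sums of the macrophage, fibroblast, endothelial, smooth muscle, satellite cell, erythrocyte and keratinocyte markers overlapped between treated and C pools.

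**Figure D4:**
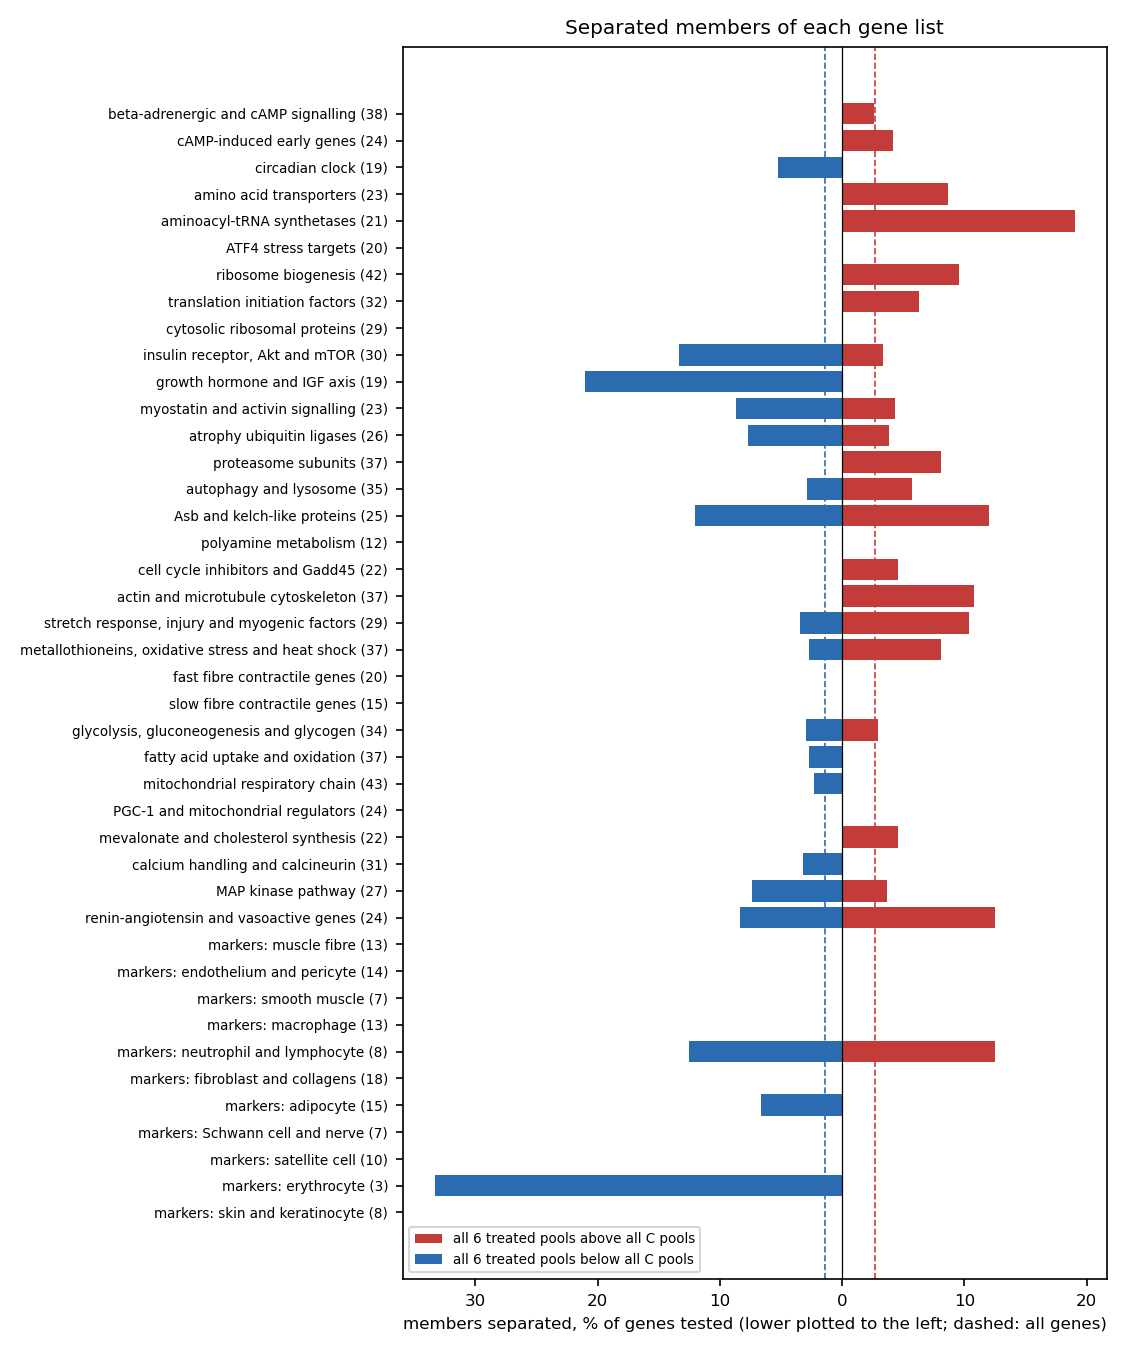
Bars give, for each of the 42 gene lists, the percentage of the genes tested (number in brackets) whose 6 treated pools all lay above (red, right) or below (blue, left) all C pools, and dashed lines give the same for all 15184 genes, 2.7% and 1.41%. The longest red bar is that of the aminoacyl-tRNA synthetases (19.0%) and the longest blue bar among lists of over 10 genes that of the growth hormone and IGF axis (21.1%). Some lists, the latter among them, hold genes that the study reported as changed on these pools.

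Promoter sequence was available for 20 of the upward genes and both downward genes, as 300 bases from 250 before to 50 after the RefSeq start on GRCm38.p6. The full cyclic AMP response element, TGACGTCA, was in 0 of the 20 and in 3.12% of 12127 genes tested with a promoter. Its core, TGACG, which is part of the full element, was in 7 of the 20 (35%, against 32.1% of all). The E-box CACGTG was in 3 (15%, against 10.7%), the ATF4 core TGATGNAA in 1 (5%, against 3.08%) and the antioxidant response core TGACNNNGC, which can overlap the TGACG core, in 6 (30%, against 16.4%). All were searched on both strands, and a match describes letters only.

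The CArG box, the motif of serum response factor, was in 3 of the 20 (15%), Vcl, Prune2 and Rnf128, against 1.55% of all genes. Its share was 1.80% of the 333 genes separated upward and 3.41% of the 176 separated downward. These 3 windows are shown with that of Mt1, which was among the 4 still called with any 1 pool left out. Capitals mark a CArG box in Vcl (chr14:20929148-20929447, plus strand) and Rnf128 (chrX:139610370-139610669, plus strand), a CArG box and 2 TGACG cores in Prune2 (chr19:16955868-16956167, plus strand) and a TGACG core in Mt1 (chr8:94178839-94179138, plus strand), read as CGTCA where the match is on the other strand.
Vcl: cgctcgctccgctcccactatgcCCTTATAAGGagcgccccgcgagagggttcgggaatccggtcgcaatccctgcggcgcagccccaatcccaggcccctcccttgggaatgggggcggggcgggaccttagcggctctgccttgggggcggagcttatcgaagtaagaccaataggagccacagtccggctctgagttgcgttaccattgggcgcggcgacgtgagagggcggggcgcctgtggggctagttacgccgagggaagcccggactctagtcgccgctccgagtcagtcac
Prune2: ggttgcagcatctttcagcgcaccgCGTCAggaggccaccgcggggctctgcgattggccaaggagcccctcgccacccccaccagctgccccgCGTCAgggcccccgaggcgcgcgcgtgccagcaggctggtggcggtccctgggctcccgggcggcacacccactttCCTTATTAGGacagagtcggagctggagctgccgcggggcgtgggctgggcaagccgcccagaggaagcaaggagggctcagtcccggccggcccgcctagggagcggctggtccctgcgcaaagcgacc
Rnf128: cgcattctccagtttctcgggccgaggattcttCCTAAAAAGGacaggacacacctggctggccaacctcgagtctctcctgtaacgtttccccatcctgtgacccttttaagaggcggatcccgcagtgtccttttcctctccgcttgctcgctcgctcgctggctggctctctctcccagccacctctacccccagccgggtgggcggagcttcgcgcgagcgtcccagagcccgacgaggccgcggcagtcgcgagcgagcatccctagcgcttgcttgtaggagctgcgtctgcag
Mt1: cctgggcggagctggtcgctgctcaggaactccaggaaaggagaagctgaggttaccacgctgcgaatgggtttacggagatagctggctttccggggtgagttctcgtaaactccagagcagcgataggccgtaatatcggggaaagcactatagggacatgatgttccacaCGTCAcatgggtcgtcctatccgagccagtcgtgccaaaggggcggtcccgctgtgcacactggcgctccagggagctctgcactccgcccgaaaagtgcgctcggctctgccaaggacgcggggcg

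Some of these probesets had been selected by the study as differentially expressed on the same pools, so their appearance here is not independent evidence.

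**Figure D5:**
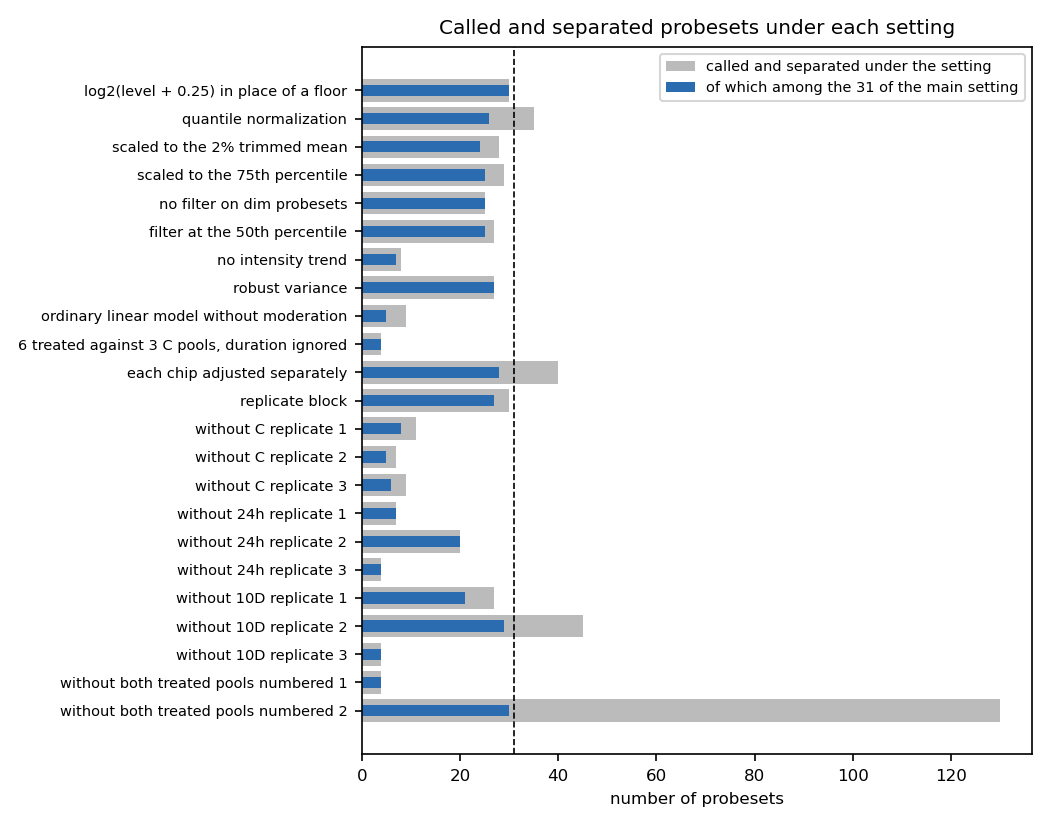
Grey bars give the number of probesets called and separated under each alternative setting, blue bars how many of these are among the 31 of the main setting, which the dashed line marks. Counts fall to 4 when duration is ignored or when 24 h pool 3 or 10 D pool 3 is left out, and reach 130 without both treated pools numbered 2.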

How the data were processed

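Arrays were quantified by the authors with MAS 5.0, and the deposited values were linear signal intensities without scaling between arrays. Each was divided by its array median, 18 zeros were first replaced by a signal of 0.05, and log2 was taken. Tested were probesets with a mean log2 signal over the 9 arrays at or above the 25th percentile of their chip, which equals a signal of 14.1 (MOE430A) or 6.97 (MOE430B). Of 100 probesets found on both chips, only the MOE430A copy was kept. Each chip was fitted with a 3-group linear model in R 4.3.3 and limma 3.58.1 (lmFit, then eBayes with an intensity trend, 6 residual degrees of freedom). Benjamini-Hochberg adjustment ran over both chips at once. All tests were two-sided, and adjusted p-values of single probesets are limma's. An exact permutation test of 6 pools against 3 gives 0.0238 for any separated probeset, the smallest p it can reach.

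The detection calls of MAS 5.0 were not used here, so a group at a dim level is not shown to exceed background. The number of arrays limits the precision. Gene symbols are those of the platform annotation after an update to RefSeq symbols of GRCm38.p6. Of the probesets tested 26744 had 1 symbol, 684 several and 6324 none. The described probeset with several symbols, that of Gm44504 and Ubl4a, is assigned to neither gene. The genes described are the called and separated probesets, the separated ones nearest to them and the separated or smallest-p members of each list, plus the reference gene Actb. Members and lists were chosen with earlier results of these data known. The labels name no batch, and none was tested. Scripts were tested on simulated data of this layout. Alternatives changed the scaling, the filter, the variance model, the adjustment, the replicate block or the pools used. Figures were drawn in Python 3.11.15 with matplotlib 3.10.9.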

Additional observations from a re-analysis of the deposited data

Results flagged for a closer look

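By limma's test of 10 D against 24 h (adjusted p below 0.1), the change differed between durations for 5 of the 31 called and separated probesets. The log2 difference, 10 D minus 24 h, was -3.36 for Cdkn1a (adjusted p = 0.0013), -2.06 for Mt1 (0.0402), -2.14 for Emd (0.0262), -1.68 for Klhl30 (0.0645) and 2.04 for Asb15 (0.0233). In each the 10 D pools lay between C and 24 h.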

How the results depend on the processing

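The 31 called and separated probesets, 29 higher and 2 lower, became 8 (7 and 1) without the intensity trend, 9 (8 and 1) with an ordinary linear model, and 4 (4 and 0) when duration was ignored, and 8, 9 and 4 were called in all. By quantile normalization 27 were higher and 8 lower. The lower count was 1 without a filter on dim probesets and 6 with each chip adjusted separately. Other settings of scaling, filter, floor, variance and adjustment kept the total between 25 and 40. With the replicate block 35 were called and 30 called and separated (27 higher and 3 lower), and 27 of these 30 are among the 31. The calls of Vcl, S100a8, Raph1 and Hfe were lost with it (adjusted p from 0.1004 to 0.124). Deviations of same-numbered pools correlated above 0.1 in 3 of 9 pairs on MOE430A, each between 24 h and 10 D (0.388, 0.558 and 0.102), and in 2 of 9 on MOE430B (0.114 and 0.16), also between these groups. Same-numbered C and treated pools stayed below 0.1, and 24 h pool 3 and 10 D pool 1, with different numbers, had 0.333, so the numbers were not taken to pair the samples. With 1 pool left out the count ranged from 4 to 45, the higher ones from 4 to 41, the lower ones from 0 to 6, all calls from 4 to 46 and separated probesets from 1531 to 3155, the last rising because fewer pools had to be separated. Chosen after seeing the data, leaving out both treated pools numbered 1 gave 4 (4 and 0) with 4 called and 3727 separated, and leaving out both numbered 2 gave 130 (108 and 22) with 143 called and 3304 separated. The cause was not tested.

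Directions that reversed belong to changes near 0. One Actb probeset (0.02) had -0.00796 by quantile normalization, -0.018 by the trimmed mean, -0.024 by the 75th percentile, -0.087 without both treated pools numbered 1, and -0.26 to 0.27 with 1 pool left out. The other Actb probeset (-0.11) had 0.046 without both treated pools numbered 1 and -0.23 to 0.070 with 1 pool left out. Actn4 ranged from -0.087 to 0.21 and Mbp from -0.33 to 0.14.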
